A study of Mus musculus with 22 samples.

Results

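Phase II conjugation enzymes join a small soluble group to a foreign or endogenous molecule so that it can leave the cell. The genes of 3 such enzyme families, the glutathione S-transferases (GST), the UDP-glucuronosyltransferases (UGT) and the sulfotransferases (SULT), were followed in azoxymethane-induced colon tumours of mice. Members were all genes of the array annotation whose symbol begins with Gst and a class letter a, k, m, o, p, t or z, or with Ugt or Sult and a number. The probe set with the highest mean was taken where a symbol had several. This gave 53 genes of the 19505 named symbols on the array. They comprised 21 GST, 11 UGT and 21 SULT genes, each with 1 probe set. Of the 25 conjugation genes listed for the text in any case, 21 were measured, and Gsta1, Ugt1a1, Ugt1a6a and Ugt1a7c were not analysed here.

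All 22 tumours came from male FVB/N mice, an inbred strain, and all were induced with azoxymethane, a chemical carcinogen that acts on the colon epithelium of rodents. The 6 obese sulindac mice received sulindac, an anti-inflammatory inhibitor of the cyclooxygenases, on high-fat food that supplied 60% of calories as fat. The 5 formerly obese mice were fed high-fat food first and low-fat food afterwards. The 5 obese mice stayed on high-fat food without sulindac. The 6 control mice had low-fat food, 10% of calories as fat, also without sulindac. Each tumour carries its own mouse number in the sample titles, except an obese sulindac tumour titled Mouse_X. The sources used here state neither the age of the mice nor the dose of sulindac, and normal colon was not analysed here. RNA came from whole tumour tissue, in which epithelium is mixed with stroma and blood cells.

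GSTs couple reduced glutathione to electrophiles such as lipid peroxidation products and activated carcinogens, and several of them also reduce organic peroxides. UGTs transfer glucuronic acid from UDP-glucuronic acid to drugs, bile acids and steroids, and SULTs transfer sulfate from the donor PAPS to phenols, steroids and catecholamines. In the colon, conjugation is carried out largely by epithelial cells, and the conjugates are pumped out by membrane transporters. Many of these genes are targets of NRF2, of the aryl hydrocarbon receptor and of the receptors PXR and CAR, which sense electrophiles, planar aromatic compounds, and drugs and bile acids.

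The letters before the transcription start are shown for genes whose levels moved together, or failed to, across the tumours. RefSeq held a promoter in GRCm38.p6 for 46 of the 53 members, and the 250 bases before the start were searched on both strands. The 3 pi-class promoters are given first because Gstp1 and Gstp2 varied together and Gstp3 did not. Capitals mark a motif match. For Gstp3, Gstm6 and Gstm7 the start used lies inside the gene's RefSeq span, which ends upstream at 4059605, 107953641 and 107931877. Most of the Gstp3 and Gstm6 windows and a smaller part of the Gstm7 window therefore lie within the annotated gene. Motif positions are counted from the start used.
Gstp1, chr19:4037913-4038162, minus strand: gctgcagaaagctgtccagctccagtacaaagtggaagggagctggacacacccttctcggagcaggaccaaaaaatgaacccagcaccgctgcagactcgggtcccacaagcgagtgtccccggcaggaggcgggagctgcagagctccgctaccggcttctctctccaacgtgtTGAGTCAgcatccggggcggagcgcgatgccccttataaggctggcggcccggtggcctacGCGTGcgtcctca
Gstp2, chr19:4042222-4042471, minus strand: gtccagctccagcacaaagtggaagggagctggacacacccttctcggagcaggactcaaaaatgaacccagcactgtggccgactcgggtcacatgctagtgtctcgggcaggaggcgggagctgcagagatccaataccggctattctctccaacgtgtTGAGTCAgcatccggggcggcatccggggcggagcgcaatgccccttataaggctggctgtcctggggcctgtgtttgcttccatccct
Gstp3, chr19:4059448-4059697, minus strand: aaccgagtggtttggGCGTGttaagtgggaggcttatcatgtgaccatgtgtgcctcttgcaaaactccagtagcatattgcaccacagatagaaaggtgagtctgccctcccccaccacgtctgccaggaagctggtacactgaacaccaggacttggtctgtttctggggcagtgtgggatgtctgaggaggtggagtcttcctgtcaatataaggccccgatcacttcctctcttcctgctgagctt
In a gapped alignment, Gstp1 and Gstp2 had identical letters for 83.2% of the 250 bases. Gstp3 shared 59.2% with Gstp1 and 60.8% with Gstp2. The share that unrelated promoters reach in such an alignment was not measured. Gstp1 and Gstp2 both hold the letters TGAGTCA, a match to the AP-1 motif TGANTCA, which begins 74 bases before the start in Gstp1 and 89 bases before it in Gstp2. Gstp3 has no match to that motif in this window. A match to GCGTG, the core of the xenobiotic response element, begins 13 bases before the start in Gstp1 and 235 bases before it in Gstp3. The next promoters belong to a pair of mu-class genes that varied together and to Sult1b1, whose level ran against theirs.
Gstm6, chr3:107953467-107953716, minus strand: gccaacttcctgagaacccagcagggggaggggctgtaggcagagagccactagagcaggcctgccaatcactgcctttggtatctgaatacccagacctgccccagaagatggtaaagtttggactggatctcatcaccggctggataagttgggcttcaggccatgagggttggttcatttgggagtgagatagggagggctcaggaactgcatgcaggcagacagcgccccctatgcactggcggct
Gstm7, chr3:107931818-107932067, minus strand: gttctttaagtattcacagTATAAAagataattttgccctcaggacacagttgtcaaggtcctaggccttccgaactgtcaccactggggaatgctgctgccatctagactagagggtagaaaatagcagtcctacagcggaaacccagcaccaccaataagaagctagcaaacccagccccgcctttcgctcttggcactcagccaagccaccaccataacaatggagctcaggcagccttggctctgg
Sult1b1, chr5:87538196-87538445, minus strand: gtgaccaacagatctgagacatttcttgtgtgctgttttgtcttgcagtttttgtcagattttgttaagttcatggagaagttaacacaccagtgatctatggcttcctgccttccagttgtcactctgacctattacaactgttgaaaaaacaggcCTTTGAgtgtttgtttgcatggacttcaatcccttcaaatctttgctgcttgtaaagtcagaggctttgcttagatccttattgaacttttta
Gstm6 and Gstm7 shared 58.8% of 250 bases in the same kind of gapped alignment. Gstm6 has no match to any of the searched motifs, Gstm7 has a TATA box (TATAAA) that begins 231 bases before the start, and Sult1b1 has a TCF/LEF match (CTTTGA) that begins 93 bases before it. Over the members with a promoter, the AP-1 motif was found in 8 of 46 (17.4%), against 6.75% of all 32851 promoters. Each member was counted by its outermost promoter entry alone, whereas every entry counted among all promoters, so the shares are on unlike units. The 8 members include the paralogs Gstp1 and Gstp2 and several Ugt2b genes. CTTTGA was found in 11 (23.9%) against 13.8%, and TATAAA in 9 (19.6%) against 12.4%. The antioxidant response element TGACNNNGC was found in 2 (4.35%), Gsta3 and Gstm5, against 10.2%. Only these exact letters were counted. The stretch TGAGTCAgc of Gstp1 and Gstp2 has G where this motif has its first C, and otherwise matches it. GCGTG was found in 7 (15.2%) against 28.2%, and the CDX motif TTTATG in 3 (6.52%) against 10.8%. These motifs do not contain each other, and a match describes letters only, not binding.

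Each array gave 22203 log2 levels, with array medians of 6.67 to 6.83 and a lowest correlation between arrays of 0.947. Precision is limited by the number of arrays. The epithelial markers Epcam, Krt8, Krt18, Krt19, Cdh1, Cdx1, Cdx2 and Cldn7 had a mean level of 13.3 to 15.2 in every tumour, and 0 of the 8 had a mean under 6. Members differed in how far their tumours spread. The range over the 22 tumours was above 3 log2 units for 18 of 53 members (34%), against 9.69% of all probe sets. It was above 3 for 10 of 21 GST, 3 of 11 UGT and 5 of 21 SULT genes. The mean level was under 6 for 28 of 53 members (52.8%), against 44.6% of all probe sets, and these were 4 GST, 8 UGT and 16 SULT genes. The deposited values give no detection call, so levels in this low range may hold little more than background, and a difference there is given as measured. Levels of different probe sets are not set against each other.

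**Figure D1:**
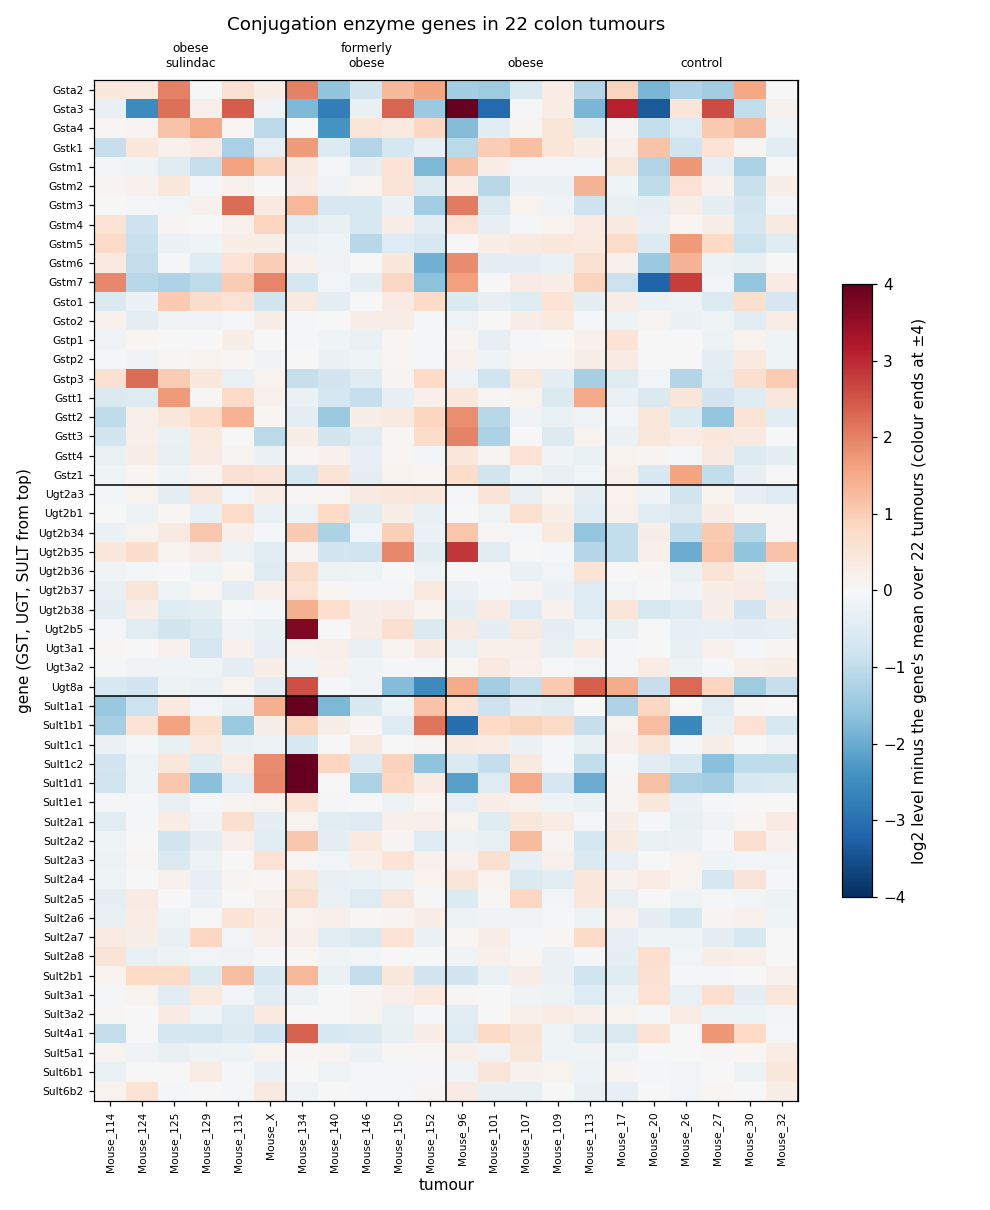
Each row is a member and each column a tumour, grouped as obese sulindac, formerly obese, obese and control. Colour gives the log2 level minus the member's mean over 22 tumours. The column of formerly obese Mouse_134 holds dark red cells for Sult1a1, Sult1c2, Sult1d1 and Ugt2b5, and Gsta3 and Gstm7 have red and blue cells within single groups.

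Among the alpha-class GST genes, whose products remove lipid hydroperoxides and their aldehydes, Gsta3 spread most, from 6.30 in control Mouse_20 to 14.53 in obese Mouse_96. Gsta3 lay at a lowest, median and highest level of 7.14, 9.71 and 12.09 in obese sulindac tumours. The 5 formerly obese tumours had 7.87, 6.91, 9.37, 12.01 and 8.2, the 5 obese tumours 14.53, 6.56, 9.61, 9.98 and 7.85, and the control tumours a lowest, median and highest of 6.30, 9.99 and 12.77. All 4 groups overlapped over most of that range, so the groups could not be ordered by Gsta3. Gsta4, which conjugates the reactive aldehydes of lipid oxidation, had log2 levels of 14.33 ± 0.90 in obese sulindac, 13.88 ± 1.28 in formerly obese, 13.61 ± 0.84 in obese tumours and 14.17 ± 0.88 in the controls (SD, n = 6, 5, 5 and 6). The 4 means of Gsta4 differed by less than the spread inside the groups.

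The 7 mu-class genes lie next to each other on chromosome 3 in GRCm38.p6, and their products conjugate epoxides and quinones. Gstm1 ranged from 13.26 in formerly obese Mouse_152 to 16.78 in control Mouse_26. Gstm7 ranged from 7.31 to 13.26, with its lowest and highest tumours, Mouse_20 and Mouse_26, both in the control group. Gstm6 ranged from 6.48 to 10.28. Gstm2, Gstm3, Gstm4 and Gstm5 had ranges of 2.46, 3.62, 1.66 and 2.79 log2 units. Of the pi-class genes, only Gstp3 spread as widely as some of them. Gstp1, the main pi-class transferase, stayed between 13.53 and 14.41, and Gstp2 between 12.68 and 13.46, in all 22 tumours. Gstp3, at 4.20 to 7.75, had a range of 3.55. Gstk1, a transferase of mitochondria and peroxisomes, ranged from 9.03 to 12.01. The omega gene Gsto1, which also reduces dehydroascorbate, lay between 10.97 and 12.75, and Gstz1, an isomerase of tyrosine breakdown, between 8.47 and 11.04. The theta genes Gstt2 and Gstt3 lay at 7.92 to 11.32 and 9.43 to 12.67, and Gstt1 at 5.07 to 7.69. Gsto2 and Gstt4 stayed under 6 in every tumour.

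Of the UGT genes, 3 had a mean level of at least 6. Ugt2b34, a member of the steroid and bile acid conjugating branch, lay between 12.31 and 14.99, and Ugt2b35 between 4.96 and 9.79. Ugt8a, which uses galactose in place of glucuronic acid and makes galactosylceramide, a myelin lipid, lay between 4.09 and 9.21. Its group means were 6.30 ± 0.32 in obese sulindac, 6.25 ± 1.97 in formerly obese, 7.15 ± 1.62 in obese tumours and 6.85 ± 1.52 in the controls (SD). The 6 obese sulindac tumours were close together, at 5.88 to 6.79, while each of the other groups spread over more than 3 log2 units. The other 8 genes, which include Ugt2a3, Ugt2b5, Ugt2b38 and the pair of Ugt3 genes, had means under 6.

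Of the SULT genes, 5 had a mean level of at least 6. Sult1a1, the phenol sulfotransferase, lay between 5.45 and 11.59, and Sult1b1, which sulfates phenols and thyroid hormones in the gut, between 6.58 and 11.75. Sult1c2 lay between 4.47 and 12.37, and Sult1d1, which sulfates catecholamines in mice, between 5.93 and 14.71. Sult2b1, which sulfates cholesterol, stayed between 9.61 and 11.89. The other 16 genes had means under 6. They include 8 of the 9 Sult2 genes, whose liver-type members sulfate bile acids and dehydroepiandrosterone, and Sult1e1, the oestrogen sulfotransferase, at 4.62 to 5.50.

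A single formerly obese tumour stood apart in these families. Mouse_134 had the highest level of all 22 tumours for 12 of the 53 members, namely 6 SULT, 5 UGT and 1 GST gene. Of these, Ugt2b5, Ugt2b36, Ugt2b37, Ugt2b38, Sult1e1 and Sult4a1 had means under 6. The share of all probe sets with their highest level in Mouse_134 was not counted. Whether the count is particular to these families was therefore not tested. It also shared the highest Gsta2 level, 9.33, with obese sulindac Mouse_125. No other tumour held the highest level for more than 6. Its Sult1d1 level was 14.71, against 10.02 in the next tumour, its Sult1c2 level 12.37 against 8.03, its Sult1a1 level 11.59 against 8.67 and its Ugt2b5 level 8.48 against 5.41. The absorptive colonocyte score, the mean level of 23 markers of mature surface cells, was 13.7 in Mouse_134 and at most 11.5 in the other tumours. Mouse_134 also had the highest scores of smooth muscle markers (11.48, next 10.27), PXR and CAR targets (10.45, next 8.71) and efflux pumps (11.35, next 11.04). The part of normal colonocytes or of smooth muscle in the levels of this tumour was not tested. Differences of formerly obese tumours are therefore given with and without it.

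**Figure D2:**
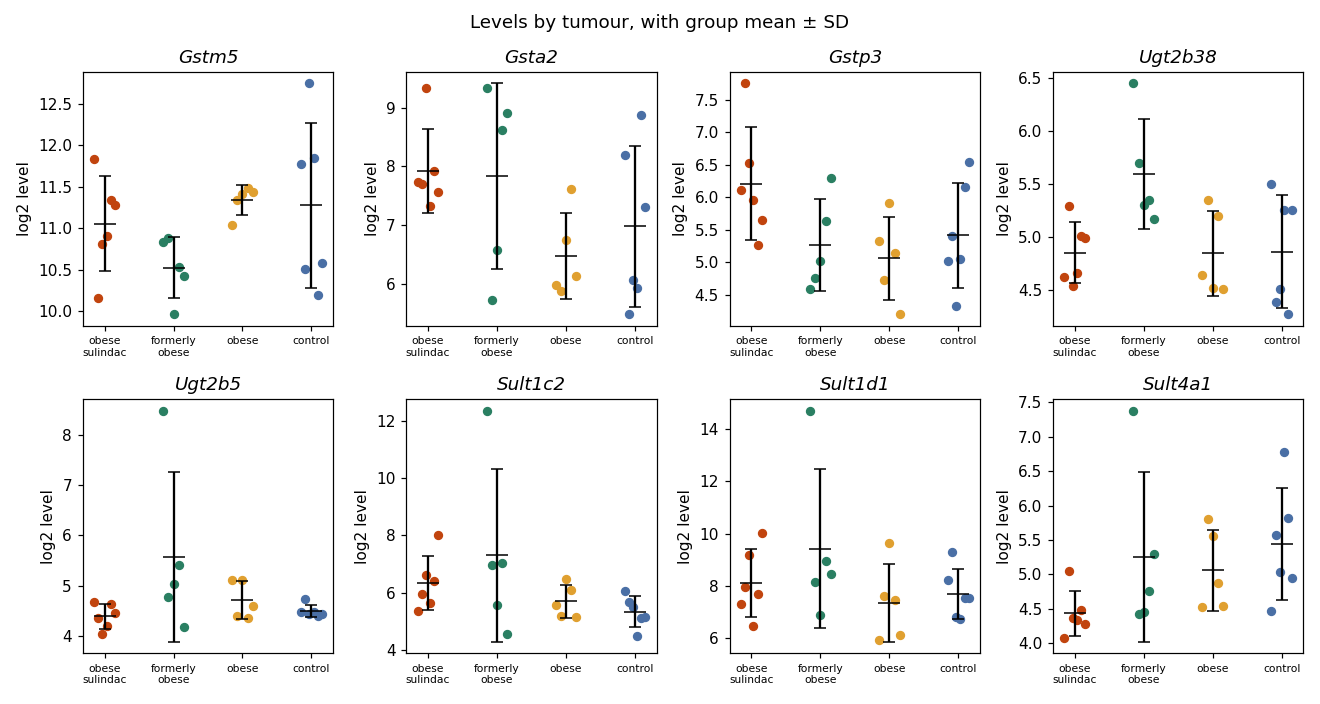
Points are log2 levels of single tumours in the 4 groups, left to right obese sulindac, formerly obese, obese and control, and bars give the mean ± SD. The highest formerly obese point of Ugt2b5, Sult1c2, Sult1d1 and Sult4a1 is Mouse_134, and the obese points of Gstm5 all lie above the formerly obese points.

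Obese tumours were set against control tumours to ask how conjugation genes differ in tumours that grow under obesity. No member differed from control tumours beyond the test over all genes. Of the 53 members, 28 lay higher and 25 lower, with a median difference of 0.04 log2 units. In limma, 0 of 53 members and 0% of the 22203 probe sets passed an adjusted p under 0.05 (Benjamini-Hochberg), and the smallest adjusted p of a member was 0.9998. At an unadjusted p under 0.05 there was 1 member (1.89%), against 4.03% of all probe sets. For 0 members did the groups not overlap, against 0.383% of all probe sets.

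The single member under that unadjusted threshold was Sult2a7, a sulfotransferase gene of the liver-type branch that is dim here. It had 4.61, 4.80, 4.44, 4.58 and 5.30 in obese tumours and a lowest, median and highest level of 3.87, 4.26 and 4.53 in control tumours. The difference was 0.51 ± 0.21 log2 units (SE, 95% interval 0.06 to 0.95), with 4 of 5 obese tumours above every control tumour, at an adjusted p of 0.9998 in limma. Gstm7 had the largest difference of the 53, at 1.06 ± 0.80 (95% interval -0.60 to 2.72). It lay at 11.12 ± 0.65 (SD) in obese tumours and at 10.06 ± 1.99 in the controls, and all obese tumours lay inside the control range. The difference of Gstm7 was 0.51 without control Mouse_20 and 1.70 without control Mouse_26. Among the UGT genes, 8 of 11 lay higher in obese tumours, among them Ugt2a3 by 0.21 (-0.19 to 0.61), Ugt2b35 by 0.59 (-0.77 to 1.94) and Ugt2b34 by 0.28 (-0.69 to 1.25). Ugt2b35 and Ugt2b34 turned to -0.06 and -0.01 without obese Mouse_96, which had the highest level of both, and Ugt2a3 was 0.08 without obese Mouse_101. Of the 21 SULT genes, 14 lay lower, with a median of -0.05. Over all probe sets 49.1% lay higher in obese tumours. In the same comparison 20 of 23 colonocyte markers lay lower (median -0.33) and 10 of 10 macrophage markers higher (median 0.35), 0 of them past the adjusted threshold in limma, and their part in the family values was not tested. The intervals leave room for larger differences in the variable genes Gstm7 and Ugt2b35 than in Ugt2a3.

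Formerly obese tumours were set against obese tumours to ask what the switch to the low-fat diet does. Here 15 of 21 GST genes lay lower after the switch, with a median of -0.15 log2 units, while 12 of 21 SULT genes and 6 of 11 UGT genes lay higher, with medians of 0.10 and 0.09. Over all probe sets 50.7% lay higher and the median was 0.00. The 7 mu-class genes among the GST genes varied together, so the GST count is not of 21 separate observations. Without Mouse_134 the GST genes stayed at 15 of 21 lower (median -0.16) and the UGT genes at 6 of 11 higher (median 0.02), but 9 of 21 SULT genes lay higher and 12 lower (median -0.03).

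Markers of cell types were compared between the same groups, and 0 of them passed the adjusted threshold in limma. Of 23 absorptive colonocyte markers, all lay higher in formerly obese tumours (median 1.13), and 21 did so without Mouse_134 (median 0.70). Their score lay at 10.33 to 13.7 in formerly obese and 9.0 to 11.1 in obese tumours. All 11 fibroblast and matrix genes lay lower (median -0.43, without Mouse_134 10 of 11) and so did all 9 neutrophil markers (median -0.89, without it 8 of 9). Scores of the fibroblast list were 9.54 to 11.1 in formerly obese and 10.5 to 11.1 in obese tumours, and those of the neutrophil list 6.33 to 7.89 in formerly obese and 7.12 to 8.63 in obese tumours. Of 12 WNT and stem cell genes, 10 lay lower (median -0.23, without Mouse_134 9), with scores of 11.7 to 12.9 in formerly obese and 12.5 to 13.2 in obese tumours. The part of these markers in the family values was not tested.

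No member passed the test over all genes (0 of 53 in limma, background 0%), and the smallest adjusted p was 0.866. At an unadjusted p under 0.05 there were 2 members (3.77%), against 5.69% of all probe sets. The groups did not overlap for 2 members (3.77%), Gstm5 and Sult2a6, against 0.878% of all probe sets.

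Gstm5, a mu-class transferase gene, had 10.83, 10.88, 9.96, 10.53 and 10.42 in formerly obese tumours, against 11.04, 11.34, 11.41, 11.48 and 11.44 in obese tumours. All 5 formerly obese tumours lay below all 5 obese tumours. The difference was -0.82 ± 0.38 (95% interval -1.61 to -0.03), and -0.89 without Mouse_134, at an adjusted p of 0.872 in limma and an unadjusted exact permutation p of 0.00794, the smallest that 5 against 5 tumours can give. Control tumours spread over 10.19 to 12.75 and overlapped both groups. Sult2a6, a dim gene, had 4.28, 4.35, 4.18, 4.26 and 4.40 in formerly obese tumours and 3.93, 4.0, 4.01, 4.10 and 3.95 in obese tumours. Its difference of 0.30 (-0.05 to 0.64), also 0.30 without Mouse_134, had an adjusted p of 0.878 in limma, which uses the spread of all 4 groups.

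Ugt2b38, a dim gene of the steroid-conjugating branch, had 6.45, 5.70, 5.30, 5.35 and 5.17 in formerly obese tumours, against 4.64, 5.35, 4.52, 5.20 and 4.51 in obese tumours. The difference was 0.75 ± 0.27 (95% interval 0.19 to 1.31, adjusted p = 0.866 in limma) and 0.54 without Mouse_134. Gsta2, an inducible alpha-class gene, lay 1.36 higher (-0.04 to 2.77), with 9.33, 5.73, 6.58, 8.62 and 8.90 in formerly obese and 5.97, 5.88, 6.75, 7.62 and 6.13 in obese tumours. It was above every obese tumour in 3 of 5 formerly obese tumours, and the difference was 0.99 without Mouse_134. Gstt1 and Gstm4 differed by -0.70 (-1.54 to 0.13) and -0.45 (-1.0 to 0.10), by -0.73 and -0.41 without Mouse_134, and Gstt1 by -0.40 without obese Mouse_113.

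The largest differences belonged to sulfotransferase genes and came with Mouse_134. Sult1d1 had 14.71, 8.13, 6.86, 8.95 and 8.44 in formerly obese tumours and 5.93, 7.59, 9.64, 7.45 and 6.12 in obese tumours, a difference of 2.07 ± 1.06 (-0.12 to 4.27) that was 0.75 without Mouse_134. Sult1c2 differed by 1.61 ± 0.91 (-0.28 to 3.50), and by 0.35 without Mouse_134. Ugt2b5 differed by 0.86 ± 0.49 (-0.15 to 1.87), and by 0.13 without it. In each of these 3 genes a single formerly obese tumour set most of the difference of the group means.

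Obese sulindac tumours were set against obese tumours to ask what the drug does to tumours of obese mice. The members with the smallest p were GST genes, Gstp3 and Gsta2, and both lay higher with sulindac. Over the 53 members, 24 lay higher and 29 lower, with a median of -0.04 log2 units, beside 0.01 over all probe sets. Of all probe sets, 51.7% lay higher. Of 23 colonocyte markers, 18 lay higher with sulindac (median 0.44), 0 past the adjusted threshold in limma, and their part in the members' values was not tested. No member passed the test over all genes (0 of 53 in limma, background 0%), and the smallest adjusted p was 0.698. At an unadjusted p under 0.05 there were 2 members (3.77%), against 6.55% of all probe sets, and for 0 members did the groups not overlap, against 0.676% of all probe sets.

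Gsta2 had 7.74, 7.70, 9.33, 7.32, 7.92 and 7.56 in obese sulindac tumours and 5.97, 5.88, 6.75, 7.62 and 6.13 in obese tumours. Only obese Mouse_109, at 7.62, reached into the sulindac range. The difference was 1.46 ± 0.65 (95% interval 0.11 to 2.80), a 2.75-fold higher mean, with an adjusted p of 0.739 in limma. It ranged from 1.18 to 1.75 when single tumours were left out. Against control tumours, which lay between 5.48 and 8.87, the difference of Gsta2 was 0.95 (-0.33 to 2.23). Gstp3 had 6.11, 7.75, 6.53, 5.95, 5.26 and 5.65 in obese sulindac tumours and 5.32, 4.72, 5.91, 5.14 and 4.20 in obese tumours. The difference was 1.15 ± 0.44 (0.25 to 2.06, adjusted p = 0.698 in limma), with 4 of 6 sulindac tumours above every obese tumour, and 0.84 without obese sulindac Mouse_124. For its close relatives the values were 0.05 (-0.22 to 0.33) for Gstp1 and -0.07 (-0.35 to 0.20) for Gstp2.

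Gsta4 lay 0.72 higher (-0.43 to 1.86) and Gstk1 differed by -0.63 (-1.63 to 0.36). Without obese Mouse_96 these differences were 0.39 and -0.99, and that of Gstk1 was -0.42 without obese Mouse_107. The cholesterol sulfotransferase gene Sult2b1 was at 10.87 ± 0.77 in obese sulindac and 10.21 ± 0.43 in obese tumours (SD), a difference of 0.66 (-0.11 to 1.44). Sult4a1, a dim gene for a sulfotransferase of the brain with no well defined substrate, differed by -0.63 (-1.56 to 0.30). Of the sulindac tumours, 5 of 6 lay below every obese tumour. Of the UGT genes, 7 of 11 lay lower, and Ugt8a differed by -0.85 (-2.54 to 0.83), with -0.38 without obese Mouse_113 and -1.33 without obese Mouse_101. The 3 main comparisons share the 5 obese tumours, so a low or high obese mean enters each of them.

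**Figure D3:**
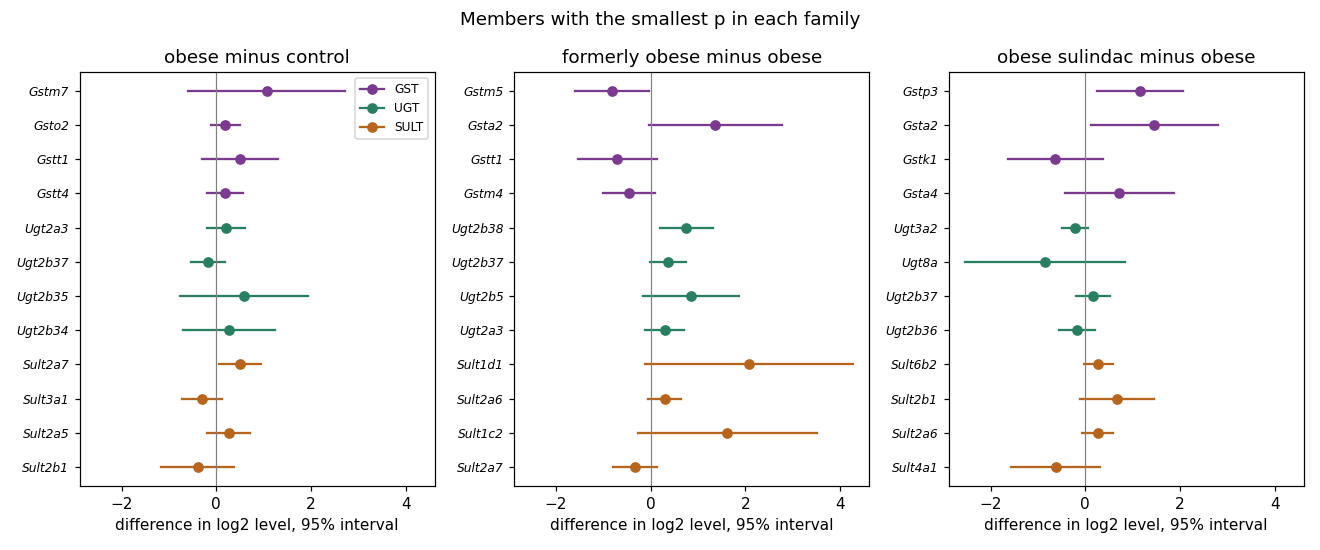
Points give the difference in log2 level and lines its 95% interval for the 4 members of each family with the smallest p, in obese minus control, formerly obese minus obese, and obese sulindac minus obese tumours. The lines of Sult2a7, Gstm5, Ugt2b38, Gstp3 and Gsta2 stop short of 0 in 1 panel each, and those of Sult1d1 and Sult1c2 are the widest of the middle panel.

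The remaining pairs of groups gave the same count of 0 members past the threshold in limma, at a background of 0% each, with smallest adjusted p of 0.840 for formerly obese against control, 0.724 for obese sulindac against control and 0.667 for obese sulindac against formerly obese tumours. At an unadjusted p under 0.05, formerly obese tumours had 4 members (7.55%) higher than control tumours, against 5.54% of all probe sets. These were Ugt2b38 by 0.73 (0.19 to 1.27), Ugt2b5 by 1.08, Ugt2a3 by 0.50 (0.11 to 0.90) and Sult1c2 by 1.98 (0.17 to 3.79). Without Mouse_134 they were 0.52, 0.35, 0.56 and 0.71 in the same order, so this tumour set most of the difference of Ugt2b5 and Sult1c2. Without it 3 members (5.66%) were under that p, against 4.61% of all probe sets. They were Ugt2b38 and Ugt2a3 and, in the other direction, Gstm5 (-0.83). Of the colonocyte markers, 21 of 23 lay higher than in control tumours (median 0.74), and 15 without Mouse_134 (median 0.23). Ugt2a3 was at 4.75, 4.74, 5.06, 5.14 and 5.16 in formerly obese tumours and at a lowest, median and highest level of 3.98, 4.48 and 4.85 in control tumours. Obese sulindac tumours differed from control tumours at that threshold in 2 members (3.77%), against 6.63% of all probe sets: Sult2a7 by 0.48 (0.05 to 0.90) and Sult4a1 by -1.01 (-1.90 to -0.12). Sult4a1 lay at 4.07, 4.35 and 5.05 (lowest, median, highest) with sulindac and at 4.47, 5.30 and 6.78 in control tumours, with 4 of 6 sulindac tumours below every control tumour. Against formerly obese tumours, obese sulindac tumours differed in 3 members (5.66%), against 6.62% of all probe sets. Gstp3 lay 0.95 higher (0.04 to 1.85), and Ugt2b38 and Ugt2b5 differed by -0.74 (-1.28 to -0.20) and -1.18 (-2.15 to -0.21). Without Mouse_134 Gstp3 lay 0.78 higher, and Ugt2b38 and Ugt2b5 differed by -0.53 and -0.46, so this tumour set most of the Ugt2b5 difference. For Ugt2b38, 5 of 6 sulindac tumours lay below all 5 formerly obese tumours. In that comparison 17 of 21 GST genes (81.0%) lay higher with sulindac, with a median of 0.36 log2 units, against 49.8% of all probe sets. Without Mouse_134 it was 18 of 21 (median 0.42), against 49.9% of all probe sets. Of the colonocyte markers, 22 of 23 lay lower with sulindac (median -0.61), or 13 without Mouse_134 (median -0.03), and all 11 fibroblast and matrix genes lay higher both with and without it. The part of these markers was not tested.

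An F test over the 4 groups gave 0 members and 0% of all probe sets past an adjusted p under 0.05 in limma. At an unadjusted p under 0.05 it gave 1 member (1.89%), Ugt2b38, against 6% of all probe sets.

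The enzymes depend on cofactors and on regulators, and these genes gave the same picture of small counts. Of 22 measured genes for other conjugation and for cofactor supply, 0 passed in any of the 6 comparisons in limma, over all genes. Between obese and control tumours, 11 of these genes lay higher and 11 lower, with a median of -0.02. Only 1 of them, Mgst1, was under an unadjusted p of 0.05 in limma there, against 4.03% of all probe sets. Mgst1, a membrane-bound glutathione transferase, differed by 1.40 ± 0.45 between obese and control tumours (12.62 ± 1.03 and 11.22 ± 0.71, SD) and by 1.5 ± 0.43 between obese sulindac and control tumours, with adjusted p of 0.9998 and 0.588 in limma. Papss2, which makes the sulfate donor, was at 14.33 ± 0.89 in obese sulindac, 14.43 ± 1.13 in formerly obese, 13.84 ± 0.55 in obese and 13.69 ± 0.90 in control tumours. Among 19 NRF2 targets outside the families, 14 lay higher and 5 lower with sulindac than in obese tumours, with a median of 0.10, and 0 passed. Nqo1, a quinone reductase, differed by 1.17 ± 0.48 (8.12 ± 0.75 in obese sulindac and 6.95 ± 0.89 in obese tumours, adjusted p = 0.719 in limma). Nqo1 also differed by -1.19 ± 0.48 in obese against control tumours, which had 8.14 ± 0.86. In that comparison 8 of the 19 NRF2 targets lay higher and 11 lower, with a median of -0.05. Nqo1 alone of them was under an unadjusted p of 0.05 in limma. Of 13 targets and partners of PXR and CAR, 11 lay higher and 2 lower in formerly obese than in obese tumours, with a median of 0.45, and 0 passed. Without Mouse_134 it was 8 higher and 5 lower, with a median of 0.22. The mean score of that list differed by 0.60 with Mouse_134 and by 0.04 without it (7.67 in formerly obese and 7.63 in obese tumours), so this tumour set most of the difference. Of 9 efflux pump genes, 0 passed in any comparison.

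Several members varied together from tumour to tumour. The 7 mu-class genes gave 21 pairs, and all 21 had a positive correlation over the 22 tumours, with a median r of 0.56 and a range of 0.20 to 0.83. Over all 1378 pairs of members the median r was 0.03. Pairs of Sult2 genes, most of them dim, had a median r of 0.04, and pairs of Ugt2 genes 0.20. The following pairs were picked as the strongest, so their permutation p, from 100000 draws and not adjusted for 1378 pairs, describes them only.

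Gstm6 correlated with Gstm1 (r = 0.83, permutation p = 1e-05, the smallest possible; rho = 0.76, permutation p = 1.0e-04) and with Gstm7 (r = 0.83, permutation p = 3.0e-05; rho = 0.78, permutation p = 4.0e-05). Without the 2 tumours farthest from the median r was 0.74 and 0.86, and within groups 0.82 and 0.82. Against these, Sult1b1 ran the other way. Its r was -0.83 with Gstm6 (permutation p = 1e-05; rho = -0.76, permutation p = 0.00012), -0.72 without the 2 farthest tumours and -0.84 within groups. Obese Mouse_96 had the lowest Sult1b1 level, 6.58, and the highest Gstm6 level, 10.28, while formerly obese Mouse_152 had the highest Sult1b1 level, 11.75, and the lowest Gstm6 level, 6.48. Gstp1 and Gstp2 correlated at r = 0.77 (permutation p = 3.0e-05) and rho = 0.84 (permutation p = 1e-05), 0.75 without the 2 farthest tumours and 0.79 within groups, while the pairs of Gstp3 with them had r of 0.02 and -0.02. Ugt2b34 and Ugt2b35 correlated at r = 0.78 (permutation p = 3.0e-05) and rho = 0.78 (permutation p = 7.0e-05), 0.78 without the 2 farthest tumours and 0.78 within groups. Sult1c2 and Sult1d1 had an r of 0.88 (permutation p = 5.0e-05) and a rho of 0.65 (permutation p = 0.00152), but r was 0.51 without the 2 farthest tumours and 0.63 without Mouse_134. Genes of 1 class are close paralogs, and whether probes of a gene also catch its relative's RNA could not be assessed, so shared signal within the mu, pi and Ugt2b groups cannot be told apart from shared levels.

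**Figure D4:**
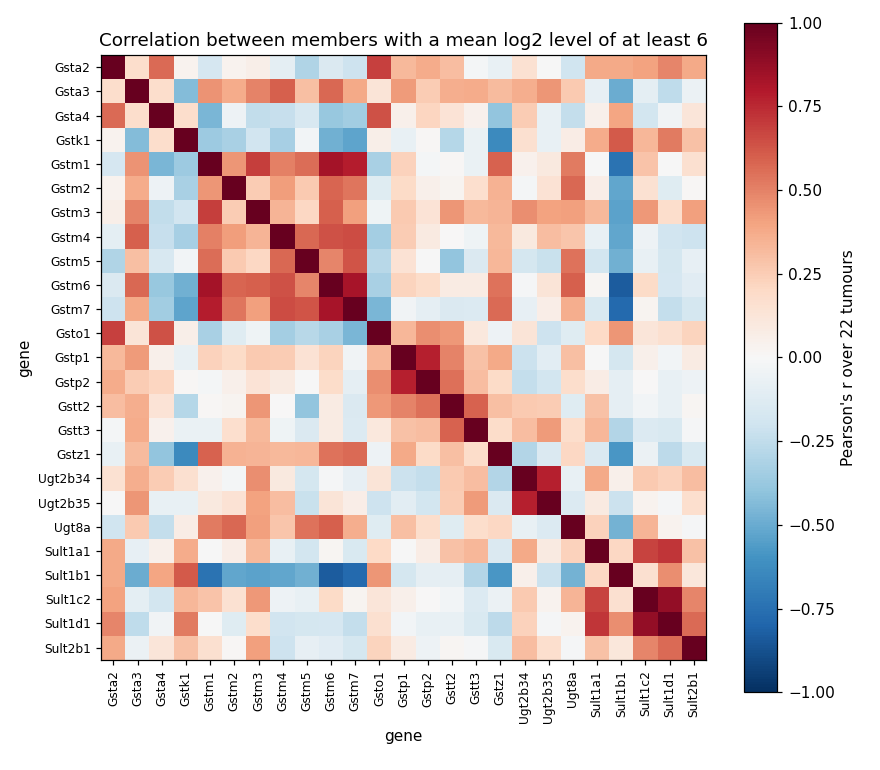
Each cell gives Pearson's r over 22 tumours between 2 of the 25 members with a mean log2 level of at least 6. The mu-class genes form a red block, Gstp1 and Gstp2 a red pair, and the row of Sult1b1 is blue against the mu-class genes, with -0.83 for Gstm6.

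Members were then set against scores of marker lists, as measures of what each tumour piece held. In bulk tissue, fewer cells of a type and less RNA per cell cannot be told apart. A fit of each probe set on group and on the mean level of a marker list was run for 20 lists, and 8 of them had at least 1 member past an adjusted p under 0.05, 12 different members in all. The absorptive colonocyte list was planned for this fit and the other 19 were added after the data were seen. For the colonocyte score, limma called 4 members (7.55%) against 3.78% of all probe sets, all with a rising slope. Without Mouse_134 it called 6 members (11.3%) against 4.69% of all probe sets, and 3 of them fell with the score. These were Ugt8a, at a slope of -1.42 ± 0.25 (adjusted p = 0.00205 in limma), Gstm6 at -0.97 ± 0.19 (adjusted p = 0.00587) and Gstm7 at -1.40 ± 0.35 (adjusted p = 0.0230). With Mouse_134 the slopes of these 3 were -0.23, -0.45 and -0.84. The 3 that rose without it were Gstk1, Sult1b1 and Sult1d1. With all tumours, Gstk1 had a slope of 0.80 ± 0.11 log2 units per unit of score (adjusted p = 0.000292), and its adjusted p stayed under 0.05 when any 1 of the 22 tumours was left out. Its r was 0.62 (permutation p = 0.00121) and its rho 0.53 (permutation p = 0.0112), with 0.39 without the 2 farthest tumours and 0.87 within groups. Sult1d1 had a slope of 1.63 ± 0.25 (adjusted p = 0.000763), called in all 22 fits that leave out 1 tumour, and 1.11 without Mouse_134 (adjusted p = 0.0311). Sult1b1 had a slope of 0.94 ± 0.24 (adjusted p = 0.0333) and was called in 16 of 22 such fits, with 1.57 without Mouse_134 and losses without Mouse_20, Mouse_26, Mouse_96, Mouse_101, Mouse_107 or Mouse_114. Sult4a1 had a slope of 0.67 ± 0.13 (adjusted p = 0.00426) and was lost only without Mouse_134 (adjusted p = 0.103).

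The score of WNT and stem cell genes (Lgr5, Axin2, Ascl2, Sox9 and 8 others measured) marks undifferentiated epithelium. Here 4 members (7.55%) were called, against 5.9% of all probe sets. The mu-class genes Gstm6 and Gstm7 rose with it, at slopes of 1.08 ± 0.25 (adjusted p = 0.0158 in limma) and 1.77 ± 0.40 (adjusted p = 0.0127), and both were called in all 22 fits that leave out 1 tumour. Gstm1 rose with a slope of 1.03 ± 0.28 (adjusted p = 0.0340, 14 of 22 fits, lost without Mouse_20, Mouse_26, Mouse_30, Mouse_96, Mouse_125, Mouse_129, Mouse_X or Mouse_152) and Sult1b1 fell with -1.41 ± 0.41 (adjusted p = 0.0450, 4 of 22 fits). For the epithelium score 5 members (9.43%) were called, against 4.43% of all probe sets. Gstk1 and Sult1b1 rose with it (1.21 ± 0.25 and 1.86 ± 0.39), and Gstm7, Gstm6 and Gstm4 fell (-2.01 ± 0.42, -1.13 ± 0.29 and -0.56 ± 0.15). Gstk1, Sult1b1 and Gstm7 were called in all 22 fits, Gstm6 in 18 (lost without Mouse_20, Mouse_26, Mouse_96 or Mouse_124) and Gstm4 in 13.

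Leucocyte scores gave the reverse pattern for the mu-class genes. With the T cell score 4 members (7.55%) were called, against 6.21% of all probe sets. Gstm1, Gstm6 and Gstm7 fell with it (-1.06 ± 0.23, -1.08 ± 0.21 and -1.63 ± 0.35) and Sult1b1 rose (1.62 ± 0.30), each in all 22 fits. The B and plasma cell score called the same 4 members with the same signs, against 2.8% of all probe sets, with Sult1b1 called in 22, Gstm1 and Gstm6 in 20 (lost without Mouse_26 or Mouse_152) and Gstm7 in 4 of the 22 fits. With the macrophage score 3 members (5.66%) were called, against 5.17% of all probe sets. Gsta4 rose with it (1.60 ± 0.32, adjusted p = 0.00551 in limma, all 22 fits), and Gstm1 and Gstm6 fell (-1.39 ± 0.33 and -1.21 ± 0.34, 20 and 11 of 22 fits, with Gstm1 lost without Mouse_26 or Mouse_152). The score of PXR and CAR targets called Ugt2b5, Sult1a1, Sult1c2 and Sult1d1, against 0.743% of all probe sets, and the smooth muscle score called Sult1c2 and Sult1d1, against 0.288%. All of these calls were lost without Mouse_134, and that of Sult1d1 with smooth muscle also without Mouse_146. Over the 22 tumours the colonocyte score had an r of 0.84 with the epithelium score and -0.57 with the WNT score. These scores therefore cannot be told apart as partners of a gene. With the T cell, B and plasma cell, and macrophage scores its r was 0.36, 0.20 and 0.05. Without Mouse_134 these were 0.64, 0.45 and 0.36. How far the leucocyte scores can be told apart from the others as partners of a gene was not tested. Probe sets outside the 3 families followed the same scores, as the shares of all probe sets show.

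**Figure D5:**
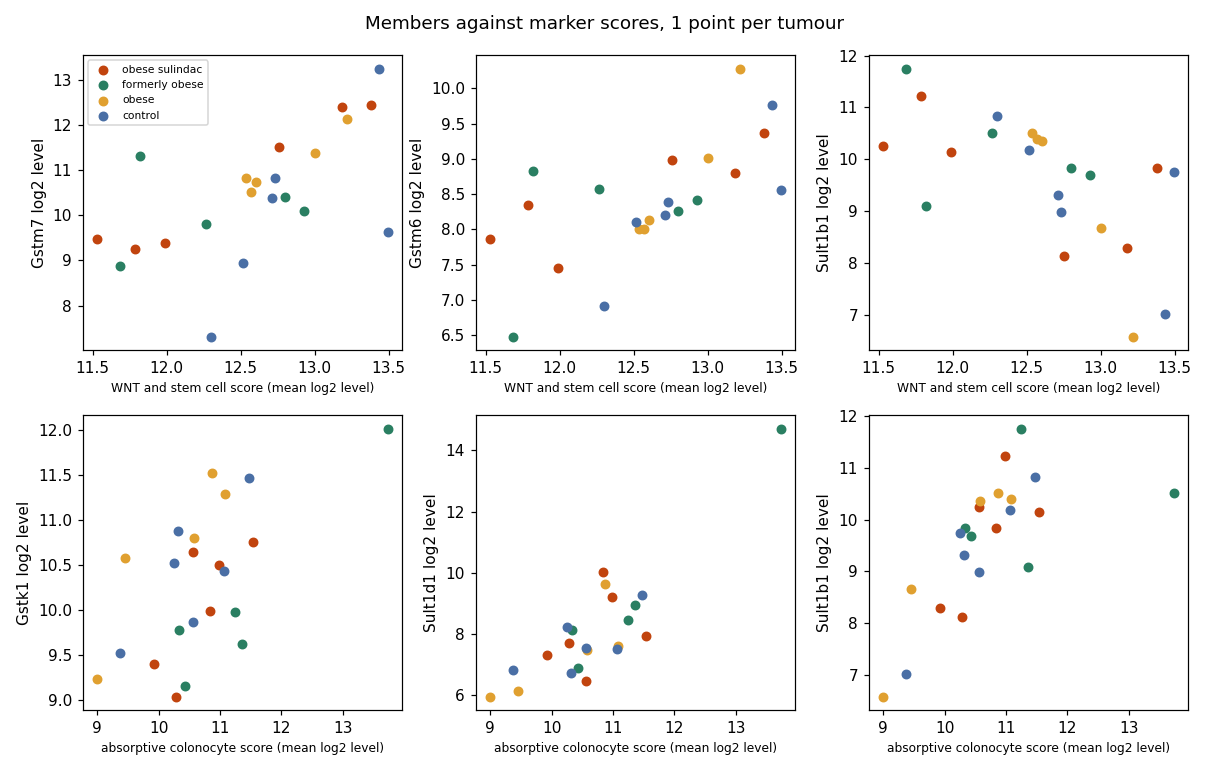
Each point is a tumour, coloured by group. The upper row plots the log2 levels of Gstm7, Gstm6 and Sult1b1 against the WNT and stem cell score, the lower row those of Gstk1, Sult1d1 and Sult1b1 against the absorptive colonocyte score. Gstm7 and Gstm6 run upward and Sult1b1 downward along the WNT score, and the point at the far right of the lower row is Mouse_134.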

How the data were processed

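Total RNA of 22 colon tumours was labelled with biotin and hybridised to Clariom S arrays, per the labels' protocols. Transcriptome Analysis Console 4.0 is the tool given in the submitters' processing notes. The values the authors deposited are on a scale read as log2, from 3.34 to 19.49. The log base, background correction and normalization were not given in the sources used here. Of 22203 probe sets, 19572 carried 1 gene symbol and 2631 are unnamed here. All 53 members matched RefSeq by Entrez gene ID. Member choice, gene lists and tests were set with earlier results of these data known.

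A mean per group was fitted to all probe sets with limma 3.58.1 (lmFit, eBayes) in R 4.3.3, two-sided, with Benjamini-Hochberg adjustment over all probe sets. Intervals are 95% intervals of that fit. No replicate numbers are shared between groups and the labels give no batch. P-values measure the spread between tumours. Named were the 4 smallest p per family in each main comparison, 1 per family in each secondary comparison, the 3 highest means and 3 widest ranges per family, and a listed set of 25 genes. Members named in score fits, pairs and promoters outside this rule were chosen after their values were seen. List scores are mean log2 levels of measured markers. Promoters were searched and aligned with Python 3.11.15 and Biopython 1.88. Tests were checked on simulated data. Alternatives were quantile normalization, centred medians, array weights, an intensity trend, a filter on dim probe sets, 2-group fits, exact permutation and leaving out each tumour. Values of families and gene lists without Mouse_134 were added after the data were seen.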

Additional observations from a re-analysis of the deposited data

Results flagged for a closer look

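Over the 38 named members and the 4 groups, 10 combinations held a tumour far from the others by Dixon's criterion, which chance alone meets in about 1 of 20 groups. Mouse_134 was the high tumour of the formerly obese group for Sult1d1 (14.71, next 8.95), Gstk1 (12.01, next 9.97), Ugt2b5 (8.48, next 5.41) and the dim gene Ugt2b36 (5.06, next 4.30). The colonocyte score of that tumour was 13.7 and its smooth muscle score 11.48, and the part of either in these levels was not tested. Formerly obese Mouse_140 had a low Gsta4 level of 11.65, against 14.01 in the next lowest tumour of the group.

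Of the obese sulindac tumours, Mouse_125 had a Gsta2 level of 9.33 (next 7.92) and Mouse_131 a Gstm3 level of 11.37 (next 9.48). Of the obese tumours, Mouse_109 had a Gsto1 level of 12.25 (next 11.36) and Mouse_96 a Ugt2b35 level of 9.79 (next 6.94). Control Mouse_20 had a Ugt2b5 level of 4.74 (next 4.48), a small gap in a group that was otherwise tight.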

How the results depend on the processing

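Of 45 named differences under 1276 alternative values, 0 passed the threshold (smallest adjusted p 0.486) and 2 reversed, both in obese against control tumours. With single tumours left out, Ugt2b35 ranged from -0.063 (without obese Mouse_96) to 0.93 and Ugt2b34 from -0.0083 (without obese Mouse_96) to 0.66. Probe sets past the threshold stayed at 0, except for a range of 0 to 1 with single tumours left out in obese sulindac against obese (1 without obese Mouse_96) and in formerly obese against control (1 without formerly obese Mouse_152). Members with an unadjusted p under 0.05 ranged, with single tumours left out, over 0 to 2 in obese against control (0 without control Mouse_30 or obese Mouse_113, 2 without control Mouse_26). The range was 1 to 5 in formerly obese against obese (1 without obese Mouse_113, 4 without formerly obese Mouse_134, Mouse_140 or Mouse_150, 5 without Mouse_146). It was 0 to 4 in obese sulindac against obese (0 without obese Mouse_113, 1 without obese Mouse_101, 4 without Mouse_X). In the secondary comparisons it was 3 to 6 in formerly obese against control, 0 to 3 in obese sulindac against control (0 without Mouse_114, 1 without control Mouse_27 or obese sulindac Mouse_129), and 2 to 5 in obese sulindac against formerly obese (5 without Mouse_150). With a mean level of at least 6 the members under that p, taken in the order of these 6 comparisons, were 0, 1, 1, 1, 0 and 0. With centred array medians they were 4 in formerly obese against obese and 1 in obese sulindac against control. With only the 2 groups compared they were 4 and 2 in formerly obese against obese and against control. Of these settings, the share of all probe sets under that p was counted only for the fits without Mouse_134. There it was 4.54% in formerly obese against obese, beside 7.55% of the members. In the other settings the member counts have no such share beside them and describe the members only. Probe sets following the colonocyte score ranged over 530 to 1041 (530 without control Mouse_26, 547 without control Mouse_20), and members over 3 to 7 (7 without Mouse_124), with 7 after centring and 9 without a group term. The causes were not tested. No paired analysis was possible because no replicate numbers are shared between groups. Each member had 1 probe set, so averaging probe sets gave no other value. Limits are the 5 or 6 tumours per group, dim levels in 28 members, unknown normalization and paralogs that probes may share.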
